A study of Homo sapiens with 9 samples.

Results

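The ZNF genes encode zinc finger proteins, most of them with a row of C2H2 fingers, each a short fold held by a zinc ion that reads a few bases of DNA. C2H2 zinc finger proteins form the largest family of human transcription factors, and many carry a KRAB domain in front of the fingers. The KRAB domain binds the scaffold TRIM28, which brings the histone methyltransferase SETDB1, heterochromatin protein HP1 and the NuRD deacetylase complex to the site and silences it. Many KRAB genes stand in clusters on chromosome 19, and their targets include transposable elements. The expressed ZNF genes of DU145, an established human prostate carcinoma line, were described here in cells kept for 6 days with a compound or its solvent.

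Members were the genes of the deposited table whose symbol is ZNF, a number and at most 1 further letter, and whose mean FPKM in the DMSO libraries was at least 3. FPKM scales reads by the length of the transcript and by the size of the library. The members were thus chosen by their measured DMSO level, which is given as a description. Of 487 ZNF genes by symbol among 16772 genes, 189 were members. All 189 were among the 11525 genes that passed the filter on low values, which asked for 1 FPKM or more in 3 or more libraries. Of the 298 ZNF genes under the limit, 202 passed it.

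There were 3 groups of 3 libraries: H93 at 20 µM in DMSO, SAHA (vorinostat, an inhibitor of histone deacetylases) at 500 nM in DMSO, and DMSO alone. The labels write the doses with a lower-case m, read here as molar, and give the cells as wild type. The series title names UHRF1 as the target of H93, a protein that brings the maintenance methyltransferase DNMT1 to newly replicated DNA. H93 was set against DMSO and against SAHA, with the 2 compounds at different doses. Nothing in the labels says that replicates were separate cultures, so the spread behind each p-value is that between libraries and may be technical only. A smaller share of cells of a kind and less RNA per cell cannot be told apart in such bulk RNA.

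The libraries summed to between 348656 and 355741 FPKM, and read depth is unknown. The epithelial keratins KRT8 and KRT18 averaged between 663.2 and 730.4 FPKM in every group. KRT19, another epithelial keratin, averaged 420.4 FPKM in H93, 326.5 FPKM in SAHA and 169.4 FPKM in DMSO. The epithelial surface gene EPCAM averaged 30.45 FPKM in H93, 37.78 FPKM in SAHA and 67.13 FPKM in DMSO. Epithelial markers were thus present in every group but moved in both directions. The leukocyte gene PTPRC averaged at most 0.008903 FPKM. The epithelial adhesion gene CDH1 averaged 4.337 FPKM in H93, 5.093 FPKM in SAHA and 13.33 FPKM in DMSO. CD68, a lysosomal gene also used as a macrophage marker, averaged 28.33 FPKM in H93, 33.44 FPKM in SAHA and 22.37 FPKM in DMSO. The part of such marker shifts in the results on ZNF genes was not tested.

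The promoter regions of the members that moved most are shown first, because the stated target of H93 acts on the maintenance of CG methylation. Each line gives the 150 bases before the RefSeq start (GRCh38.p14), 5′ to 3′ on the strand of the gene, with every CG dinucleotide in capitals. The first 3 genes had the largest rises under H93 and the other 3 are the largest falls with an entry in the RefSeq table. Methylation itself was not measured in these files.
ZNF185: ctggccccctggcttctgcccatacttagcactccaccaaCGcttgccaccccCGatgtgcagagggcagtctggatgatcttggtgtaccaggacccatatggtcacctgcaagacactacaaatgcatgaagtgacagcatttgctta
ZNF23: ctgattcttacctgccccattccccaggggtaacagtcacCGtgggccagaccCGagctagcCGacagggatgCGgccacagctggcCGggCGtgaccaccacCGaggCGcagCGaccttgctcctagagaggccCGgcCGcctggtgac
ZNF184: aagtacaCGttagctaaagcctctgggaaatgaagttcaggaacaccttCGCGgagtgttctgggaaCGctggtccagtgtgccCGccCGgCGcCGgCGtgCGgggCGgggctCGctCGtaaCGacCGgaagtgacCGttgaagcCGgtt
ZNF362: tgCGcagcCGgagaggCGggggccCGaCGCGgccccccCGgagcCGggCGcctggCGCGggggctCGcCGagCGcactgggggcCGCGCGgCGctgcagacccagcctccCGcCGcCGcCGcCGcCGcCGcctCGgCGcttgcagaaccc
ZNF511: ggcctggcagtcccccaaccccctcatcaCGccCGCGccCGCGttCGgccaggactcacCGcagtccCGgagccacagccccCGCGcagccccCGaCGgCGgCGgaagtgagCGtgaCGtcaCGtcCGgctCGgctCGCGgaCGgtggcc
ZNF219: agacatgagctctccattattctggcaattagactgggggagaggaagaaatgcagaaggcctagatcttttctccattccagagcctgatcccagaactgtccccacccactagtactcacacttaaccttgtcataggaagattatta
The windows lie at chrX:152914282-152914431 on the plus strand for ZNF185, chr16:71462248-71462397 on the minus strand for ZNF23 and chr6:27473106-27473255 on the minus strand for ZNF184. They lie at chr1:33256342-33256491 on the plus strand for ZNF362, chr10:133308764-133308913 on the plus strand for ZNF511 and chr14:21104723-21104872 on the minus strand for ZNF219. CG counts ran from 0 in the window of ZNF219 and 2 in that of ZNF185 to 27 in that of ZNF362, so both directions of change included CG-rich and CG-poor starts. The table holds 1 start per gene, and starts not in it were not examined.

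Over the wider region of 250 bases before to 50 bases after the start, 168 of the 189 members had an entry. Members held a median of 24 CG dinucleotides, against 27 in the 9528 tested genes with an entry and 14 in all 27305 promoters. Members with a KRAB pattern in their protein held a median of 20, and those in which none was found 26. The letters CCGGAAG, a core bound by ETS factors, stood on either strand in 40.5% of member promoters, against 20.6% of those of tested genes and 10.7% of all promoters. Of the members higher under H93 than under DMSO 39.5% held it, and of the lower ones 37.5%. The letters ACTACAA, part of the site of ZNF143, stood in 8.33% of member promoters, 3.95% of those of tested genes and 2.95% of all promoters. For the NRF1 letters GCATGCGC the shares were 6.55%, 5.75% and 3.27%, and for the YY1 letters AAGATGG 7.14%, 7.85% and 6.06%. The ETS letters end in AAG, with which the YY1 letters begin, so a run of both can count for each, and a match is a run of letters, not a bound site.

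Members were of modest abundance. Their median DMSO level was 5.96 FPKM, against 10.1 FPKM over all tested genes, and 42 of 189 reached 10 FPKM. Domains were read with sequence patterns in the translated coding sequence of each gene. A pattern can miss a domain. It found no KRAB in ZKSCAN1, ZKSCAN5 and ZKSCAN8, whose symbols stand for KRAB and SCAN domains. Members without KRAB are thus those in which the pattern found none. KRAB was found in 87 members, SCAN (a dimerization domain) in 11, both in 5 of these and neither in 96. A median of 9 C2H2 fingers was found per member, 12 in KRAB members and 8 in the others, up to 33 in ZNF462. The pattern found no C2H2 finger in ZNF185, ZNF330, ZNF503 and ZNF839. KRAB members were lower, with a median of 4.51 FPKM in DMSO against 7.89 FPKM in members without KRAB, and only 3 KRAB members reached 10 FPKM. KRAB made up 46.0% of the members and 74.5% of the ZNF genes under the limit, and chromosome 19 held 33.3% of the members and 58.7% of those under it.

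The most abundant member was ZNF664. Its FPKM was 83.65, 82.32 and 78.74 in H93, 72.34, 74.71 and 73.92 in SAHA and 59.24, 58.84 and 60.77 in DMSO. No group overlapped another. ZNF146, a protein made up almost wholly of fingers, had 48.63, 48.37 and 47.19 FPKM in H93, 51.43, 55.1 and 52.47 FPKM in SAHA and 56.09, 54.55 and 55.96 FPKM in DMSO. Its H93 libraries lay below all others, while SAHA and DMSO overlapped. ZNF770 averaged 42.94 ± 0.644, 40.41 ± 0.714 and 43.1 ± 0.555 FPKM in H93, SAHA and DMSO (SD, n = 3 each), and was lower in SAHA than in DMSO (limma, adjusted p = 0.00816). ZNF593, whose yeast relative acts in export of the large ribosomal subunit, averaged 42.82 ± 2.72, 42.6 ± 6.2 and 43.05 ± 3.02 FPKM in the same order. The levels of ZNF770 and ZNF593 in DMSO thus did not differ beyond their spread. ZNF511 followed, at 36.8 ± 2.19 FPKM in DMSO. The annotation (GENCODE 29) places a gene on the opposite strand within 111 of the 189 members, among them CCDC92 for ZNF664, TUBGCP2 for ZNF511 and ARHGEF40 and TMEM253 for ZNF219. The library kit marks strand, but whether the counting used it is not given in the sources used here, so reads of such neighbours may not be separated.

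**Figure D1:**
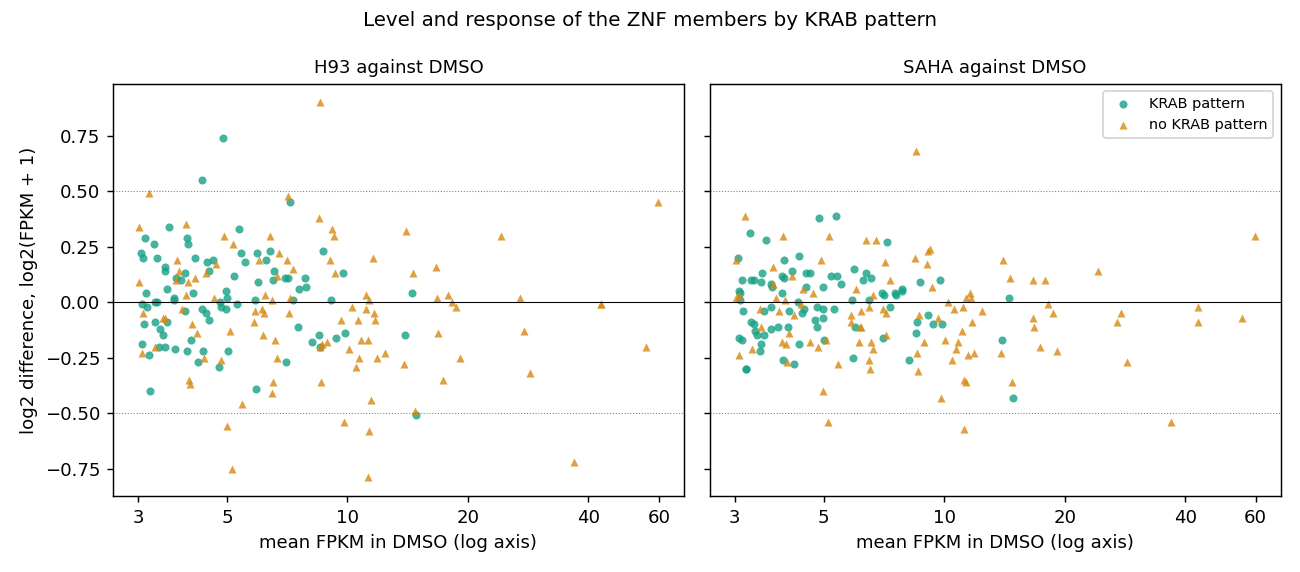
Each point is 1 of the 189 ZNF members: the horizontal axis (log scale) is its mean FPKM in DMSO, the vertical axis its log2 difference between H93 and DMSO (left) or SAHA and DMSO (right) on the log2(FPKM + 1) scale. Circles carry a KRAB pattern (87), triangles do not (102). KRAB members crowd between 3 and 10 FPKM, and the dotted lines at -0.5 and 0.5 are passed by 10 members under H93 and by 4 under SAHA.

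Under H93, ZNF genes moved in both directions and by small amounts. Against DMSO 50 of 189 members rose and 58 fell (limma on log2(FPKM + 1), Benjamini-Hochberg adjusted p under 0.05 over all tested genes). That is 57.1% of the members, where 69.8% of all tested genes were called, 34.9% as higher and 35.0% as lower. Of the 9333 genes of any symbol with a mean of at least 3 FPKM in DMSO, 34.1% were higher and 38.3% lower. No member passed a log2 difference of 1, which 2.28% of all tested genes did. A difference of at least 0.5, which is 1.41-fold in FPKM + 1 and more in FPKM, was reached by 10 members. That is 5.29%, against 14.7% of all tested genes and 13.4% of those with at least 3 FPKM in DMSO. ZNF185, ZNF23 and ZNF184 rose, and ZNF76, ZNF362, ZNF511, ZNF219, ZNF532, ZNF629 and ZNF74 fell. The added 1 shrinks differences more in low genes, and the median member was lower than the median tested gene. The tested genes also include genes under 3 FPKM in DMSO. The part of this shrinkage in the shares was not tested. The median log2 difference of the members was -0.005, that of all tested genes 0.002, and 62.4% of members lay within 0.2 of 0, against 49.9% of all tested genes. Since DMSO values chose the members, the split was counted again over the 184 ZNF genes that reached a mean of 3 FPKM in SAHA, 179 of them members: 55 were higher and 51 lower. The split leaned to falls with the genes chosen in DMSO and to rises with those chosen in SAHA.

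The shares of calls were also counted within ranges of the DMSO level. Between 3 and 5 FPKM in DMSO, 38 of 80 members (47.5%) and 66.7% of all genes in that range were called under H93. Between 5 and 10 FPKM the shares were 64.2% of 67 members and 67.0% of all genes, and from 10 to 60 FPKM 64.3% of 42 members and 75.0% of all genes. A difference of at least 0.5 was found in 3.75%, 4.48% and 9.52% of the members of these ranges, against 15.5%, 13.7% and 13.1% of all genes. These shares are descriptions without a test of the list. The median standard error of a log2 difference was 0.0516 for members and 0.0458 for all tested genes. In the 3 ranges it was 0.0614, 0.0485 and 0.043 for members, against 0.0562, 0.0489 and 0.0371 for all genes. The part of level and error in these shares was not tested.

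**Figure D2:**
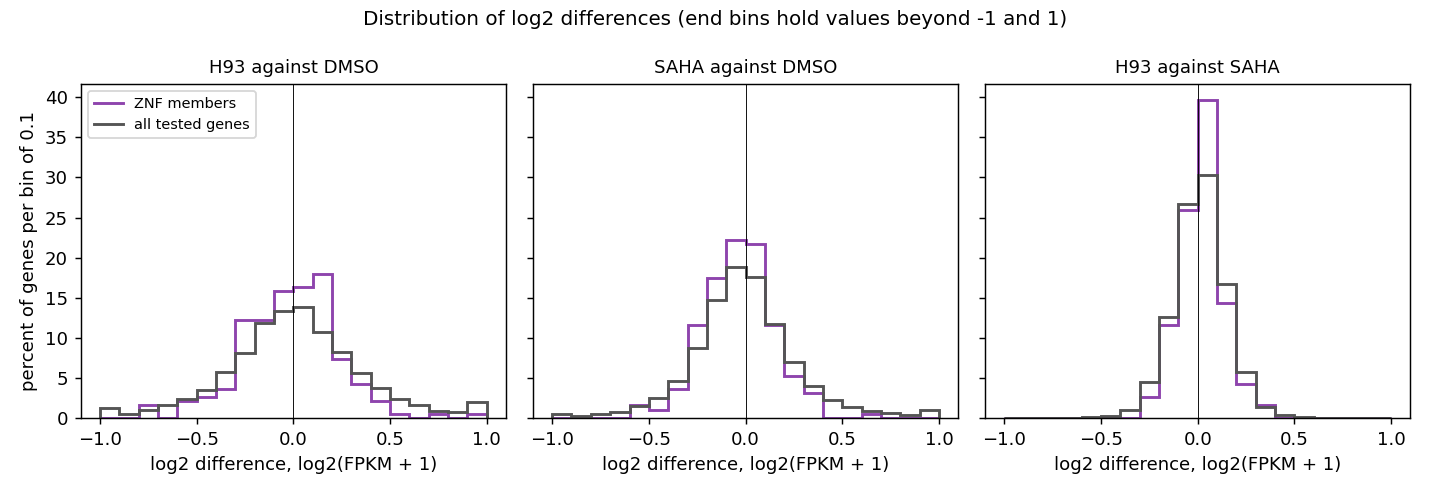
Percent of genes (vertical axis) per bin of 0.1 in the log2 difference (horizontal axis, log2(FPKM + 1) scale) for the 189 ZNF members (purple) and all 11525 tested genes (grey) in the 3 comparisons. The members are the narrower curve in each panel: under H93 against DMSO 62.4% of them and 49.9% of all tested genes lie within 0.2 of 0.

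ZNF185 had the largest rise. Despite its symbol it is a LIM domain protein of the actin cytoskeleton, reported to be low in prostate tumours. Its FPKM was 16.3, 16.65 and 17.34 in H93, 13.67, 14.43 and 14.72 in SAHA and 8.732, 8.95 and 7.893 in DMSO. The 3 groups were fully separate, with both compounds above DMSO and H93 highest. The log2 difference was 0.90 ± 0.0466 (SE, from 3 libraries a group) for H93 against DMSO (limma, adjusted p = 4.9e-09), 0.68 for SAHA against DMSO (adjusted p = 1.23e-07) and 0.22 for H93 against SAHA (adjusted p = 0.00456). Its mean FPKM in H93 was 1.97 times that in DMSO. For a single gene, an exact permutation test of 3 against 3 libraries cannot go below p = 0.1, so the p-values come from the fit across all genes.

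ZNF23 and ZNF184 are KRAB proteins. ZNF23 had 9.025, 8.756 and 8.708 FPKM in H93, 6.636, 6.329 and 6.96 FPKM in SAHA and 4.617, 5.028 and 4.987 FPKM in DMSO. The groups again stood apart, in the same order as for ZNF185. The log2 difference was 0.74 for H93 against DMSO (limma, adjusted p = 2.12e-08), 0.38 for SAHA against DMSO (adjusted p = 1.63e-05) and 0.36 for H93 against SAHA (adjusted p = 0.00018), the largest between the compounds among the members. ZNF184 had 7.179, 7.059 and 6.166 FPKM in H93, 5.518, 5.355 and 4.64 FPKM in SAHA and 4.215, 4.624 and 4.146 FPKM in DMSO, with H93 against DMSO at 0.55 (adjusted p = 1.17e-05) and H93 against SAHA at 0.34 (adjusted p = 0.003). Its SAHA libraries lay just above DMSO, by 0.21 (adjusted p = 0.0171), a call lost without DMSO replicate 1 or 3 or SAHA replicate 1 or 2 (adjusted p between 0.0514 and 0.0693).

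The next largest rises under H93 were those of ZNF462 (0.49), a many-fingered protein whose loss causes a developmental disorder, ZNF503 (0.48), a repressor active in embryonic patterning, ZNF394 (0.45), ZNF664 (0.45), ZNF277 (0.38), ZNF516 (0.35), ZNF343 (0.34) and ZNF275 (0.34). Among them ZNF394 and ZNF343 carry a KRAB pattern. ZNF462 had 4.744, 4.836 and 5.038 FPKM in H93, 4.397, 4.521 and 4.556 FPKM in SAHA and 3.185, 3.273 and 3.109 FPKM in DMSO. Both compounds lay above DMSO, and they were not called apart (adjusted p = 0.108). ZNF503 had 9.669, 10.3 and 11.1 FPKM in H93, 8.538, 7.319 and 8.768 FPKM in SAHA and 6.505, 7.385 and 7.456 FPKM in DMSO. H93 stood above both other groups, which overlapped. SAHA was nevertheless called higher than DMSO for ZNF503. That call was lost without the filter on low values (limma, adjusted p = 0.0872), DMSO replicate 1 (adjusted p = 0.157), SAHA replicate 1 (adjusted p = 0.116) or SAHA replicate 3 (adjusted p = 0.145). The difference of ZNF503 between H93 and SAHA was 0.30 (limma, adjusted p = 0.00616).

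ZNF76 had the largest fall. It had 5.854, 5.972 and 6.356 FPKM in H93, 7.18, 7.448 and 7.048 FPKM in SAHA and 10.83, 12.41 and 10.48 FPKM in DMSO. Both compounds lay well below DMSO and H93 was lowest, without overlap. The log2 differences were -0.79 ± 0.056 (SE) for H93 against DMSO (limma, adjusted p = 8.17e-08), -0.57 for SAHA against DMSO (adjusted p = 2.95e-06) and -0.22 for H93 against SAHA (adjusted p = 0.0112). ZNF143, the close relative of ZNF76 and an activator bound at many promoters of mRNA and small RNA genes, went the other way. It had 8.216, 8.108 and 7.943 FPKM in H93, 7.867, 7.89 and 8.104 FPKM in SAHA and 6.21, 6.862 and 6.108 FPKM in DMSO. The compounds overlapped and both lay above DMSO, by 0.30 for H93 (adjusted p = 6e-05) and 0.28 for SAHA (adjusted p = 0.000171).

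ZNF362 and ZNF384 are also related proteins. ZNF362 had 2.762, 2.851 and 2.354 FPKM in H93, 3.092, 3.001 and 3.589 FPKM in SAHA and 5.255, 4.906 and 5.264 FPKM in DMSO. It fell by 0.75 on the log2 scale under H93 (limma, adjusted p = 6.65e-07) and by 0.54 under SAHA (adjusted p = 2.12e-05). All its H93 libraries lay under 3 FPKM, the limit that chose the members in DMSO, and all its SAHA libraries lay above it. By its H93 level it would not be a member. H93 was below SAHA (adjusted p = 0.0318), a call lost without H93 replicate 3 (adjusted p = 0.12) or SAHA replicate 3 (adjusted p = 0.124). That call was also lost without the filter on low values (limma, adjusted p = 0.0749), with a replicate block (adjusted p = 0.0535) and in a fit to the 6 libraries compared (adjusted p = 0.053). ZNF384, which binds A-rich DNA, averaged 10.9 ± 0.426, 11.03 ± 0.488 and 11.15 ± 0.405 FPKM in H93, SAHA and DMSO (SD, n = 3 each) and was not called in any comparison.

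ZNF511 was the most abundant of the members that fell by at least 0.5. Its FPKM was 19.93, 22.43 and 23.51 in H93, 25.09, 24.92 and 25.01 in SAHA and 38.61, 37.44 and 34.36 in DMSO. All 6 treated libraries lay below every DMSO library. It fell by 0.72 on the log2 scale under H93 (limma, adjusted p = 1.35e-07) and by 0.54 under SAHA (adjusted p = 3.51e-06). The call of H93 below SAHA (adjusted p = 0.0226) was lost without H93 replicate 1 (adjusted p = 0.0781), SAHA replicate 1 (adjusted p = 0.0519) or SAHA replicate 3 (adjusted p = 0.0564). It was also lost without the filter on low values (limma, adjusted p = 0.0636). ZNF219, a partner of SOX9 in cartilage, had 7.517, 7.18 and 7.064 FPKM in H93, 9.358, 8.217 and 8.243 FPKM in SAHA and 10.92, 11.41 and 11.61 FPKM in DMSO. The order was that of ZNF76, with H93 against DMSO at -0.58, SAHA against DMSO at -0.36 and H93 against SAHA at -0.22 (adjusted p = 0.00637 for the last).

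The remaining falls of at least 0.5 were those of ZNF532, ZNF629 and ZNF74. ZNF629 had 6.362, 6.591 and 6.345 FPKM in H93, 6.952, 7.242 and 6.836 FPKM in SAHA and 9.893, 9.621 and 9.91 FPKM in DMSO, a log2 difference of -0.54 under H93. ZNF74, a KRAB gene of the DiGeorge syndrome region, had 10.01, 9.498 and 10.85 FPKM in H93, 10.71, 10.65 and 10.91 FPKM in SAHA and 14.38, 15.49 and 14.71 FPKM in DMSO. Its difference was -0.51 under H93 and -0.43 under SAHA, and the compounds overlapped. ZNF395 (-0.49), a factor first found at the Huntington disease gene, ZNF414 (-0.46) and ZNF692 (-0.44) followed.

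**Figure D3:**
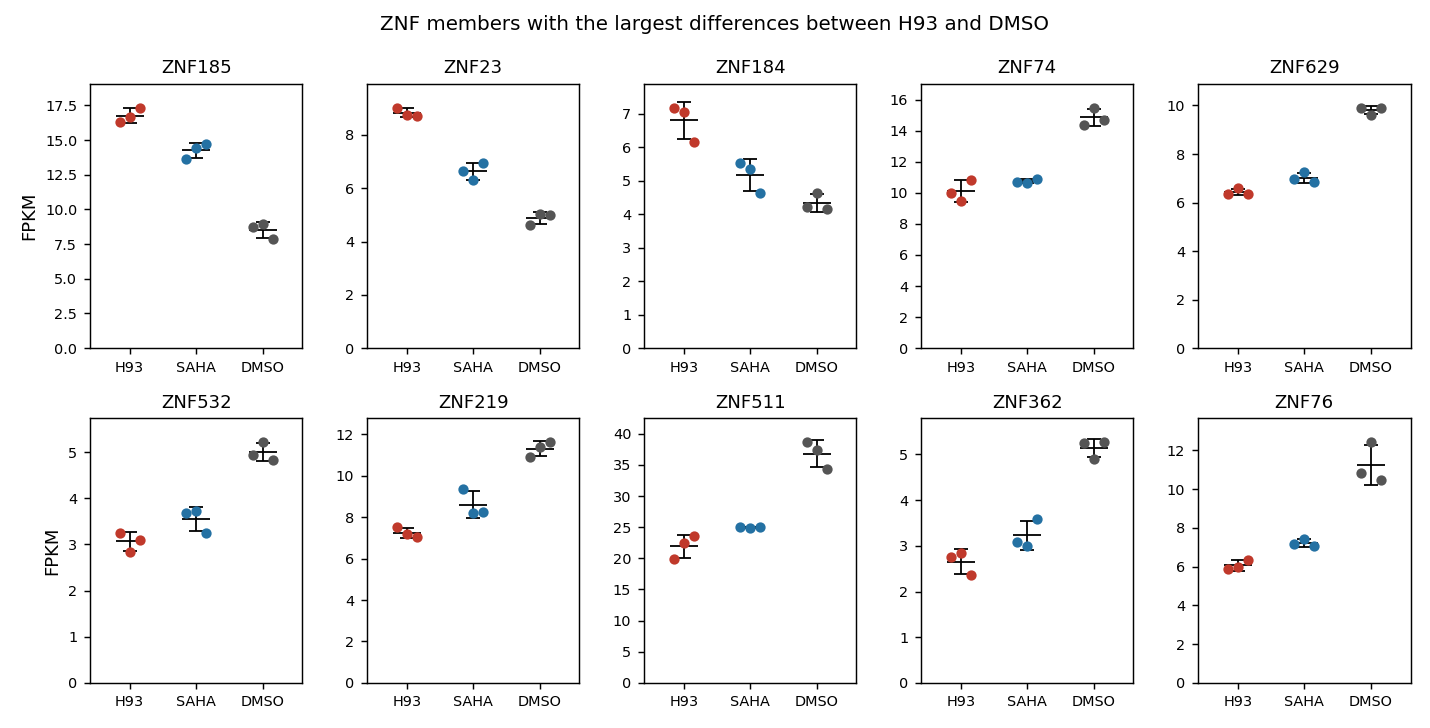
FPKM (vertical axis, from 0) in each library of the 10 members with a log2 difference of at least 0.5 between H93 and DMSO; points are libraries, and the black bar and whiskers are the mean and SD of 3. ZNF185, ZNF23 and ZNF184 stand above DMSO in all H93 libraries, and the other 7 below it, with SAHA between H93 and DMSO by its mean in all 10. The 10 were chosen by their difference between H93 and DMSO, which favours this order.

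ZNF622, which acts in maturation of the large ribosomal subunit, had 30.52, 29.35 and 30.02 FPKM in H93, 26.65, 27.17 and 26.18 FPKM in SAHA and 24.3, 23.5 and 24.77 FPKM in DMSO. The groups did not overlap, and the log2 difference was 0.30 for H93 against DMSO (limma, adjusted p = 2.01e-06) and 0.16 for H93 against SAHA (adjusted p = 0.00197). ZNF593 was not called in any comparison. ZNF598, a ubiquitin ligase for stalled ribosomes, averaged 27.27 ± 0.606, 25.28 ± 0.836 and 26.97 ± 0.714 FPKM in H93, SAHA and DMSO (SD, n = 3 each). SAHA was lower than DMSO (limma, adjusted p = 0.0319) and H93 higher than SAHA (adjusted p = 0.0282), and both calls were lost without single libraries (in SAHA against DMSO, DMSO replicate 1 with adjusted p = 0.07, DMSO replicate 2 with adjusted p = 0.118, SAHA replicate 2 with adjusted p = 0.127, and in H93 against SAHA, H93 replicate 1 with adjusted p = 0.0726, H93 replicate 3 with adjusted p = 0.0895, SAHA replicate 2 with adjusted p = 0.101). With quantile normalization both ZNF598 calls were lost as well (limma, adjusted p = 0.0886 for SAHA against DMSO and 0.0846 for H93 against SAHA). Median-ratio rescaling lost that of H93 against SAHA (limma, adjusted p = 0.0548). ZNF207, a mitotic spindle factor, averaged 18.24, 18.05 and 18.2 FPKM, and ZNF638, which takes part in silencing unintegrated retroviral DNA, 18.5, 17.98 and 18.72 FPKM in the same order. Neither was called in any comparison. ZNF326, which couples splicing to elongation, averaged 5.412, 5.413 and 5.839 FPKM and was likewise not called.

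ZNF532, ZNF592 and ZNF687 form a complex with the chromatin reader ZMYND8. ZNF532 had 3.254, 2.839 and 3.096 FPKM in H93, 3.686, 3.719 and 3.249 FPKM in SAHA and 4.947, 5.209 and 4.828 FPKM in DMSO, and fell by 0.56 on the log2 scale under H93 (limma, adjusted p = 2.34e-06) and by 0.40 under SAHA (adjusted p = 7.71e-05). ZNF687 averaged 9.818 ± 0.151 FPKM in H93, 9.974 ± 0.234 FPKM in SAHA and 11.88 ± 0.394 FPKM in DMSO (SD, n = 3 each) and fell by 0.25 under H93. ZNF592 averaged 10.27 ± 0.203, 9.859 ± 0.346 and 9.313 ± 0.414 FPKM in the same order. Its rise of 0.13 under H93 (adjusted p = 0.0139) was lost without DMSO replicate 2 (adjusted p = 0.0632) or H93 replicate 1 (adjusted p = 0.0515). ZNF644, a partner of the methyltransferases EHMT1 and EHMT2, had 4.973, 4.65 and 4.921 FPKM in H93, 5.225, 5.102 and 5.004 FPKM in SAHA and 6.862, 6.35 and 6.328 FPKM in DMSO. It fell by 0.36 under H93 (adjusted p = 1.38e-05). ZNF217, an oncogene product that works with CtBP, averaged 18.19, 19.2 and 17.85 FPKM in H93, SAHA and DMSO. Its rise of 0.10 under SAHA (adjusted p = 0.0149) was lost without DMSO replicate 3 (adjusted p = 0.0539). ZNF335, which works with a histone methyltransferase complex, averaged 11.43, 11.47 and 11.33 FPKM in the same order and was not called in any comparison.

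ZNF274 is the KRAB protein known to bring SETDB1 to the 3′ ends of ZNF genes on chromosome 19. It had 6.544, 6.661 and 7.448 FPKM in H93, 7.16, 7.949 and 8.127 FPKM in SAHA and 7.62, 7.266 and 7.691 FPKM in DMSO. The groups overlapped and no comparison was called (limma, adjusted p = 0.082 for H93 against DMSO). ZNF24, a SCAN protein, had 23.38, 23.25 and 21.49 FPKM in H93, 23.17, 24.44 and 23.0 FPKM in SAHA and 28.61, 28.95 and 28.1 FPKM in DMSO. It fell by 0.32 under H93 (adjusted p = 7.14e-06) and by 0.27 under SAHA (adjusted p = 5.09e-05). ZNF318 averaged 10.5, 10.33 and 9.061 FPKM in H93, SAHA and DMSO and rose by 0.19 under H93 (adjusted p = 0.000638). ZNF281, a relative of ZNF148, averaged 13.4 ± 0.244 FPKM in H93, 11.9 ± 0.194 FPKM in SAHA and 11.58 ± 0.268 FPKM in DMSO (SD, n = 3 each) and rose by 0.20 (adjusted p = 0.000193), while ZNF148, at 3.261, 3.166 and 3.492 FPKM, was not called. Of other members with a known role, ZNF131, ZNF202, a repressor of lipid genes, and ZNF830 fell under H93 by 0.28, 0.22 and 0.19. ZNF451, a SUMO ligase, rose by 0.14 (adjusted p = 0.038), a call lost without DMSO replicate 1 (adjusted p = 0.177), DMSO replicate 3 (adjusted p = 0.0731), H93 replicate 1 (adjusted p = 0.112) or H93 replicate 2 (adjusted p = 0.0747). It was also lost with quantile normalization (limma, adjusted p = 0.0939), without the filter on low values (adjusted p = 0.064) and in a fit to the 6 libraries compared (adjusted p = 0.0551). ZNF263, at 7.286, 6.899 and 7.173 FPKM in H93, SAHA and DMSO, was not called.

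The members were also counted by domain and place, where 34.9% of all tested genes were higher and 35.0% lower under H93. Of all genes with a mean of at least 3 FPKM in DMSO, 34.1% were higher and 38.3% lower. The classes hold members chosen by their DMSO level and were not counted again over genes chosen in another group. Their splits are thus descriptions. Under H93, 24 of 87 KRAB members rose and 21 fell, against 26 and 37 of 102 members without KRAB. In all 51.7% of KRAB members and 61.8% of the others were called, both below the 69.8% of all tested genes. Of the members without KRAB, the 75 with at least 4 fingers held 15 rises and 30 falls, and the 27 with fewer held 11 and 7. Of the 42 KRAB members on chromosome 19, 12 rose and 5 fell, and of the 45 on other chromosomes 12 rose and 16 fell. None of the 63 members on chromosome 19 reached a difference of 0.5 in any comparison, and 10 of the 126 elsewhere (7.94%) did so under H93, against 14.7% of all tested genes. Of the 11 SCAN members 1 rose and 4 fell under H93. Standard errors were larger on chromosome 19, with a median of 0.0568 against 0.0495 elsewhere, and near-identical fingers of neighbouring genes there can share reads, which the authors' counting may have split. The part of level, error, shared reads and KRAB domains missed by the pattern in these counts was not tested.

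The summed FPKM of the 87 KRAB members was 479.6, 479.1 and 475.4 in H93, 462.7, 472.7 and 458.4 in SAHA and 469.9, 467.7 and 463.3 in DMSO. The SAHA and DMSO libraries overlapped. The sum over all 189 members was 1572, 1557 and 1555 in H93, 1525, 1543 and 1535 in SAHA and 1574, 1584 and 1575 in DMSO. Since the DMSO level chose the members, these sums are a description, and no difference from DMSO is drawn from them.

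Under SAHA the members again moved by small amounts. Against DMSO 28 rose and 53 fell, 42.9% of the members. Of all tested genes 58.8% were called, 27.4% as higher and 31.4% as lower. Of the 9333 genes of any symbol with a mean of at least 3 FPKM in DMSO, 26.6% were higher and 34.5% lower. None reached a log2 difference of 1, against 1.12% of all tested genes, and 4 reached 0.5, against 7.88% of all tested genes. These were ZNF185, which rose, and ZNF76, ZNF511 and ZNF362, which fell. Over the 186 ZNF genes with a mean of 3 FPKM in H93, 177 of them members, 34 were higher and 45 lower. In members without KRAB that have at least 4 fingers 8 rose and 30 fell, and in KRAB members 11 rose and 16 fell. These classes were counted only over members chosen by their DMSO level. By level, 32.5%, 46.3% and 57.1% of the members from 3 to 5, 5 to 10 and 10 to 60 FPKM were called, against 52.3%, 54.4% and 64.8% of all genes. The H93 and SAHA comparisons share the DMSO libraries, and their values are set side by side only as values.

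Further members were among the largest rises and falls under SAHA. ZNF589 (KRAB) had 6.664, 6.849 and 7.42 FPKM in H93, 7.181, 7.301 and 7.479 FPKM in SAHA and 5.406, 5.572 and 5.092 FPKM in DMSO, with 0.33 under H93 and 0.39 under SAHA (limma, adjusted p = 1.82e-05). The compounds overlapped. ZNF839 and ZNF883 rose by 0.28 and 0.30 under SAHA, and ZNF516 by 0.30. ZNF580 had 10.06, 9.721 and 9.826 FPKM in H93, 8.787, 8.14 and 8.845 FPKM in SAHA and 10.59, 11.47 and 11.65 FPKM in DMSO. SAHA was lowest without overlap, at -0.35 against DMSO (adjusted p = 2.45e-05), and H93 lay above SAHA by 0.18 (adjusted p = 0.00905). ZNF276 fell by 0.31 under SAHA and by 0.36 under H93.

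**Figure D4:**
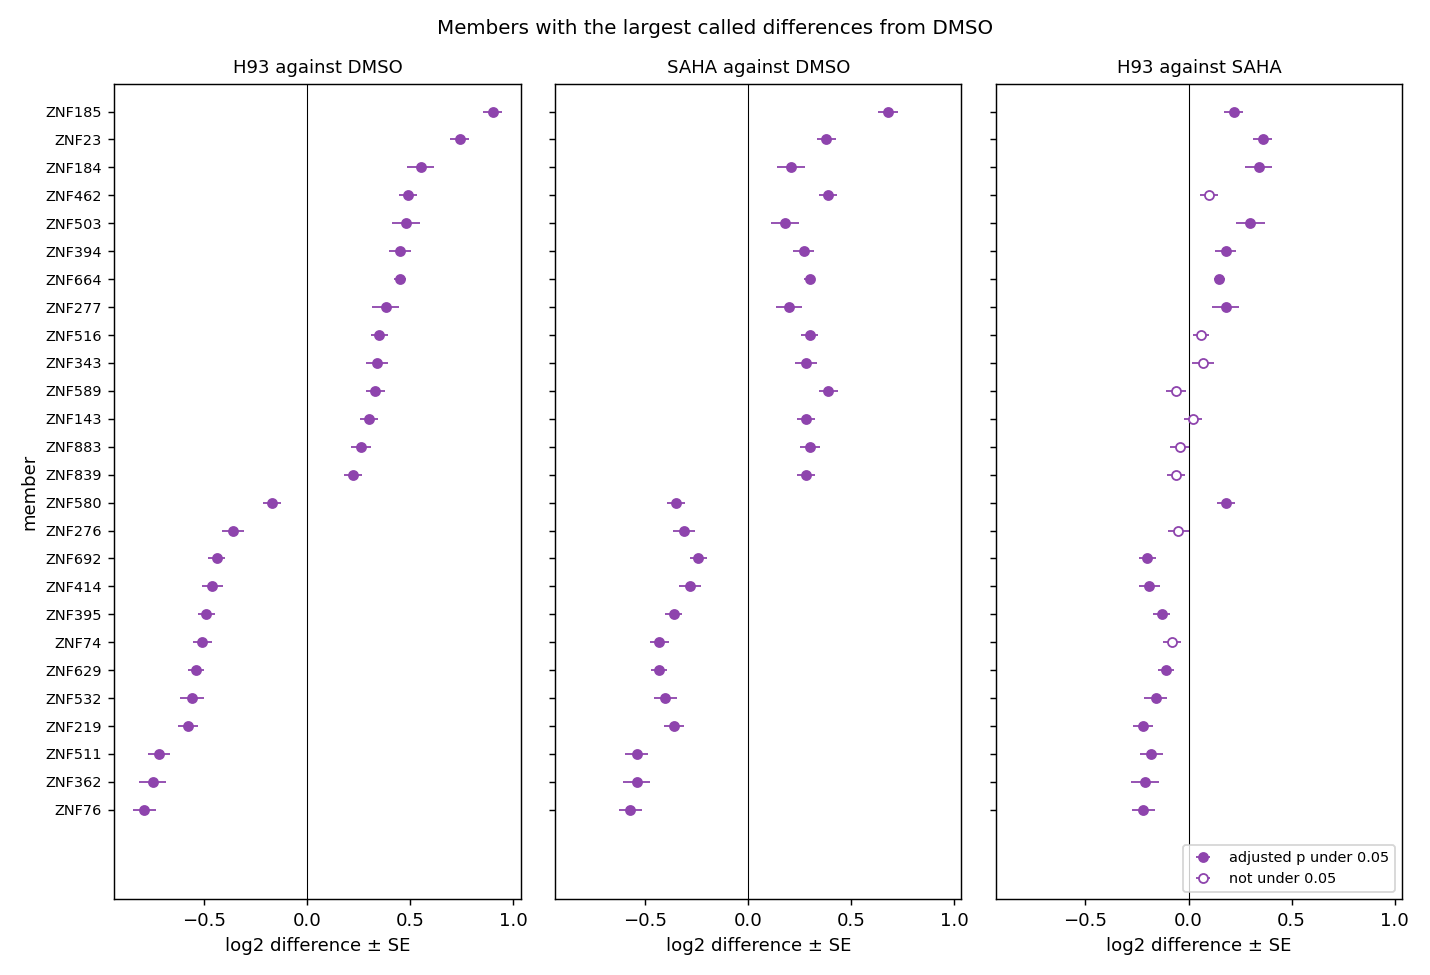
Log2 difference (horizontal axis, log2(FPKM + 1) scale) with its standard error for the 26 members with the largest called rises and falls against DMSO, ordered by H93 against DMSO, in the 3 comparisons. Filled points have an adjusted p under 0.05; ZNF185 is highest in both DMSO panels and ZNF76 lowest, while the right panel stays between -0.22 and 0.36.

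The difference between H93 and SAHA uses no DMSO value and so is independent of how the members were chosen, while its spread is estimated over all 9 libraries. Of the 189 members 21 were higher in H93 and 18 lower (limma, adjusted p under 0.05), 20.6%, where 31.5% of all tested genes were called, 17.6% as higher and 13.9% as lower. No member reached a difference of 0.5, against 0.364% of all tested genes. With quantile normalization the split was 13 higher and 21 lower. The count of lower members was 8 without H93 replicate 2, 9 without SAHA replicate 2, 10 without H93 replicate 1 and 11 without SAHA replicate 3. The count of higher members was 14 without H93 replicate 2. KRAB members held 8 of the higher and 3 of the lower calls, and members without KRAB 13 and 15.

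Of 31 named members called between H93 and SAHA, 15 kept the call in every alternative in which they were tested. ZNF319 and ZNF33B, both among the 15, were not tested with a filter at a mean FPKM of 5. Higher in H93 were ZNF23 (0.36), ZNF184 (0.34), ZNF503 (0.30), ZNF185 (0.22), ZNF286A (0.20), ZNF319 (0.20), ZNF580 (0.18), ZNF281 (0.16), ZNF622 (0.16) and ZNF664 (0.15). Lower in H93 were ZNF76 (-0.22), ZNF219 (-0.22), ZNF33B (-0.20), ZNF692 (-0.20) and ZNF146 (-0.14). The largest negative difference, that of ZNF771 (-0.25, limma, adjusted p = 0.0239), was lost without single libraries (H93 replicate 2 with adjusted p = 0.076, SAHA replicate 2 with adjusted p = 0.0616, SAHA replicate 3 with adjusted p = 0.0679). It was also lost without the filter on low values (limma, adjusted p = 0.0658). ZNF319 had 5.005, 4.475 and 4.65 FPKM in H93, 3.88, 3.865 and 4.143 FPKM in SAHA and 4.859, 4.536 and 4.495 FPKM in DMSO. Here H93 overlapped DMSO and SAHA lay below both. ZNF33B, a KRAB gene with a close copy, ZNF33A, had 3.859, 3.845 and 3.462 FPKM in H93, 4.435, 4.242 and 4.636 FPKM in SAHA and 4.895, 4.678 and 4.717 FPKM in DMSO. H93 was lowest without overlap, and how reads shared with ZNF33A were counted is not given in the sources used here.

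A list of 38 chromatin genes was measured beside the members, and 36 of them were tested. It holds the TRIM28 route of KRAB proteins and genes of neighbouring silencing and chromatin pathways, among them UHRF1, DNMT1, CTCF and YY1, so its counts are not those of the KRAB route alone. Against DMSO 5 rose and 21 fell under H93, with a median log2 difference of -0.147, where that of all tested genes was 0.002. The share called was 72.2%, near the 69.8% of all tested genes, with 13.9% higher and 58.3% lower against 34.9% and 35.0% of all tested genes. Under SAHA 4 rose and 19 fell, with a median of -0.105 against -0.015 for all tested genes. The share called under SAHA was 63.9%, against 58.8% of all tested genes. It was 11.1% higher and 52.8% lower, against 27.4% and 31.4% of all tested genes. CBX5, which encodes HP1 alpha, had 5.206, 5.506 and 5.636 FPKM in H93, 6.624, 6.402 and 6.674 FPKM in SAHA and 12.83, 13.26 and 13.17 FPKM in DMSO. No group overlapped another, and its log2 difference was -1.13 for H93 against DMSO (limma, adjusted p = 1.85e-10). SETDB1 had 7.937, 8.477 and 7.823 FPKM in H93, 9.278, 8.616 and 9.141 FPKM in SAHA and 11.75, 12.85 and 11.88 FPKM in DMSO. It fell by 0.54 under H93 and by 0.39 under SAHA. TRIM28 averaged 89.63 ± 1.09, 94.22 ± 1.57 and 103.9 ± 0.563 FPKM in H93, SAHA and DMSO (SD, n = 3 each), a fall of 0.21 under H93 and of 0.14 under SAHA.

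Other genes of the list fell under H93 as well. On the log2 scale CHD3 of the NuRD complex fell by 0.67, the H3K9 methyltransferase EHMT2 by 0.62 and its relative SUV39H1 by 0.50. CHD4, also of NuRD, averaged 52.65 FPKM in DMSO against 26.31 FPKM for CHD3, and rose by 0.09 under H93. UHRF1 averaged 34.24 ± 1.24, 37.72 ± 1.08 and 51.59 ± 1.02 FPKM in H93, SAHA and DMSO (SD, n = 3 each) and fell by 0.58 under H93 and by 0.44 under SAHA. HDAC1 rose by 0.40 under H93 and by 0.42 under SAHA. The other HP1 genes, CBX1 and CBX3, were more abundant than CBX5, at 73.59 and 106.2 FPKM in DMSO. CBX1 rose by 0.14 under each compound, and CBX3 fell by 0.21 under H93 and by 0.14 under SAHA. Whether these shifts bear on the levels of KRAB genes or their targets was not tested.

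At the limit of 3 FPKM in DMSO, the lowest members were ZNF329 with 3.014, ZNF275 with 3.023 and ZNF585B with 3.059 FPKM. Just outside it stood ZNF215 with 2.992, ZNF467 with 2.966 and ZNF595 with 2.954 FPKM.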

How the data were processed

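RNA of DU145 cells was sequenced in 9 libraries, 3 each for H93, SAHA and DMSO. The authors deposited 1 table of FPKM values for 16772 genes. The tools Trimmomatic 0.36, HISAT2 and Cufflinks and the build GRCh38.p13 are listed, without roles, per the submitters' processing notes. Sources used here give neither read depth nor whether counting was by strand.

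FPKM was used as deposited, as log2(FPKM + 1), for 11525 genes with at least 1 FPKM in at least 3 of 9 libraries. A fold change on this scale understates that of low genes. Limma 3.58.1 (R 4.3.3, trended empirical Bayes, 6 residual and 6.05 prior degrees of freedom) was fitted to all 9 libraries, two-sided, with Benjamini-Hochberg adjustment over all kept genes and a threshold of 0.05. The fit was tested on simulated data. Other scalings, pseudocounts, filters, member limits and single libraries left out were tried.

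The members and lists were chosen with earlier results of these data known. Named were the 5 most abundant members, the up to 10 largest called rises and falls without overlap per comparison, members with a known role, and the 3 genes on each side of the limit of 3 FPKM. KRAB, SCAN and finger patterns were read from translated GENCODE 29 coding sequences in place of the RefSeq protein table first planned, which was not used here. Promoters came from RefSeq (GRCh38.p14). Replicate numbers were not taken as pairs: deviations of same-numbered libraries correlated between -0.098 and 0.036. The level of 1 marker gene is not reported here.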

Additional observations from a re-analysis of the deposited data

How the results depend on the processing

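Of 116 called differences of named members, 29 lost the call in at least 1 alternative and 0 changed sign. The count of members higher in H93 than in DMSO was 30, and that of members higher in SAHA than in DMSO 17, with members chosen by at least 5 FPKM in DMSO, which leaves fewer members. With a filter at a mean FPKM of 5, which tests fewer genes, 37 were lower in H93 than in DMSO, 33 lower in SAHA than in DMSO and 11 lower in H93 than in SAHA. Without a filter 11 were lower in H93 than in SAHA, and with quantile normalization 13 were higher. The cause was not tested for the last pair of values. Without each library in turn, the counts ran from 42 to 52 higher and 53 to 60 lower for H93 against DMSO, 24 to 29 and 45 to 55 for SAHA against DMSO, and 14 to 21 and 8 to 15 for H93 against SAHA. With the replicate block the counts were 50 and 59, 29 and 53, and 22 and 15 in the same order. The labels do not say what the replicate numbers mark, so the libraries were not taken as pairs. Read depth is unknown, so no counting interval can be given.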

Other observations

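ZNF genes under 3 FPKM in DMSO, of which 202 of 298 were tested, held 39 rises and 35 falls under H93 (limma), 36.6% of those tested, where 69.8% of all tested genes were called. The genes named in this paragraph and the next were chosen after their values were seen. ZNF697 averaged 2.407 ± 0.117 FPKM in H93, 1.72 ± 0.123 FPKM in SAHA and 1.026 ± 0.0986 FPKM in DMSO (SD, n = 3 each). The KRAB gene ZNF284 averaged 2.647 ± 0.216, 2.066 ± 0.0493 and 1.25 ± 0.241 FPKM in the same order. ZNF618 went the other way, at 1.567 ± 0.0222, 1.906 ± 0.0911 and 2.791 ± 0.0704 FPKM. These genes too were chosen by their DMSO level, and the comparison with DMSO is given as a description.

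Genes with related symbols and at least 3 FPKM in DMSO were counted in the same fit, by symbol and not by domain. The ZFP symbols take in ZFP36, ZFP36L1 and ZFP36L2, and the ZBTB symbols take in ZBTB8OS. The finger pattern found no C2H2 finger in ZFP36 and ZBTB8OS. Both rises counted for ZFP were those of ZFP36 (0.57) and ZFP36L1 (0.4), while ZFP36L2 (-0.25) was among the falls. ZBTB8OS (0.13) was among the rises counted for ZBTB. Of 28 ZBTB genes 5 rose and 14 fell under H93, of 10 ZFP genes 2 rose and 6 fell, and of 11 ZSCAN and ZKSCAN genes 5 rose and 1 fell. The shares called were 67.9% of the ZBTB genes, 80.0% of the ZFP genes and 54.5% of the ZSCAN and ZKSCAN genes, against 69.8% of all tested genes, of which 34.9% were higher and 35.0% lower. ZBTB12 averaged 1.559 ± 0.219 FPKM in H93, 2.083 ± 0.267 FPKM in SAHA and 4.237 ± 0.463 FPKM in DMSO (SD, n = 3 each), a log2 difference of -1.03 for H93 against DMSO. ZFP36, an mRNA decay factor, averaged 27.3 ± 0.577, 23.21 ± 1.38 and 18.01 ± 0.24 FPKM in the same order, a difference of 0.57.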
